A study of Oryza sativa with 6 samples.

Results

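The water-treated control roots of rice seedlings were described from the Cy3 channel of 6 two-colour arrays, 6 of the 12 labelled samples in the series. The comparison was between 3 water controls on arrays titled long (24 h), called the 24 h group, and 3 water controls on arrays titled short (RNA pooled from 1 and 3 h), called the short-term group. All were roots of seedlings of Oryza sativa L. cv. TN-67, labelled as 6 days old. The methods give 6 days as the age at exposure, so age at harvest goes with time. Each array also carried, in Cy5, roots exposed to mercury (Hg) for the same time, at a concentration that the labels and the methods give in different units (mM and µM). The dyes were never swapped. The labels number 3 biological replicates per time, the methods state that RNA came from root tips, and the water channel's own label gives no time, so the time used here is that of the array title. The control RNA of the short-term group is a pool of 2 times and cannot show either alone.

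Time could not be told apart from slide. All 3 arrays of the 24 h group were on slide 1, short-term replicate 1 was on slide 2, and short-term replicates 2 and 3 were on slide 3, and each slide was scanned on a day of its own. Every difference below is therefore a difference between these arrays, in which time, slide and scan are joined, and p-values measure the spread between the 3 and 3 arrays only. In RNA of a tissue with several cell types, fewer cells of a type and less RNA per cell cannot be told apart either.

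Rice roots take up water and ions through aquaporins and transporters of the plasma membrane and the vacuole membrane. Growth takes place near the tip, where cells divide and then elongate as their walls are loosened by enzymes and expansins and rebuilt with new polysaccharides. Auxin, cytokinin, gibberellin, ethylene, abscisic acid, jasmonate and brassinosteroid act on that growth through their synthesis, their breakdown and their receptors, and receptor-like kinases, calcium sensors and MAP kinases carry signals from the cell surface.

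Signals are given as normalised Cy3 intensity in arbitrary units, after quantile normalization over the 6 arrays, from the brightest probe of each gene. Array intensities are not per molecule, so they compare 1 gene between arrays and not 1 gene with another. A difference is the mean log2 signal at 24 h minus that of the short-term group, with its standard error (SE) and a p-value adjusted by the Benjamini-Hochberg method over all genes tested (limma). A gene was called higher or lower at 24 h when its adjusted p was under 0.05 and its difference was at least 2-fold. "Above background" means that the scanner software marked the spot as well above background.

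The array held 29690 loci. Of these, 19033 were above background in Cy3 on all 6 arrays, 5146 on none and 1522 on 1 or 2. The 24 h arrays had 23045 to 23325 genes above background, against 19399 to 23054 in the short-term group, where replicate 3 had the fewest. The median Cy3 signal before normalization was 360 to 432 at 24 h and 214 to 320 in the short-term group. The median background of Cy3 was 39 to 40 at 24 h, against 37 on short-term replicate 1 and 70 and 66 on short-term replicates 2 and 3. Over the genes above background on every array, log2 signals correlated at r = 0.987 to 0.994 among the 24 h arrays, at 0.988 between the short-term arrays of slide 3, at 0.974 to 0.976 between short-term arrays of different slides and at 0.922 to 0.951 between the groups (genes are not independent replicates). The root markers OsNIP2;1, OsPIP2;5, OsPIP2;3, OsTIP2;1 and OsTIP2;2 were above background on all 6 arrays, with summed signals of 155100 to 167000 at 24 h and 108000 to 124400 in the short-term group, and none was called. The seed markers OsTIP3;1 and OsTIP3;2, aquaporins of the seed vacuole, were above background on none. Both photosynthesis genes used as shoot markers were above background on all 6 arrays, their summed signals were 2146 to 2203 at 24 h and 2974 to 4498 in the short-term group, and neither was called. The log2 differences, 24 h minus short-term, were -0.65 for Os03g0592500 and -0.97 for Os09g0481200. Os09g0481200 was called lower without short-term replicate 1 (-1.08, adjusted p = 0.00257 in limma), and Os03g0592500 was at -1.44 with the mean of its probes. The part of these shoot markers in the results below was not tested.

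The genes given next were picked as members with the highest signals in their lists, such as aquaporins, wall genes and metallothioneins. Their high signals follow from that choice and do not set these families apart from others. OsTIP1;1 (Os03g0146100), an aquaporin of the vacuole membrane, gave 133500 to 168500 at 24 h, against 172600 to 189300 in the short-term group, and OsPIP2;1 (Os07g0448800), a plasma membrane aquaporin, gave 84630 to 88620 at 24 h, against 54040 to 57170 in the short-term group. OsMT1-1a (Os11g0704500), a metallothionein, which is a small cysteine-rich protein that binds metal ions, gave 38380 to 79200 at 24 h, against 35460 to 49140 in the short-term group. Among wall genes, the beta-expansin gene Os04g0552000 gave 126000 to 150900 at 24 h, against 122000 to 127200 in the short-term group, and the UDP-glucose 6-dehydrogenase gene Os12g0443500, whose enzyme makes the UDP-glucuronic acid used for wall polysaccharides, gave 101300 to 120900 at 24 h, against 60100 to 80090 in the short-term group. The cellulose synthase gene Os07g0252400 gave 51200 to 65320 at 24 h, against 45020 to 63570 in the short-term group. The calmodulin gene OsCam2 (Os05g0491100), a calcium sensor, gave 66610 to 69820 at 24 h, against 50200 to 54350 in the short-term group. OsIAA13 (Os03g0742900), of the Aux/IAA repressors of auxin signalling, gave 44670 to 61220 at 24 h, against 34380 to 38860 in the short-term group, and OsAOC (Os03g0438100), allene oxide cyclase of jasmonate synthesis, gave 24390 to 26600 at 24 h, against 20690 to 27270 in the short-term group. None of these 9 genes differed by 2-fold between the groups.

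Detection differed by family. On all 6 arrays, 24 of 30 aquaporins, 10 of 11 metallothioneins, 16 of 16 MAP kinases and 211 of 296 hormone genes on the array were above background, against 449 of 867 receptor-like kinases. In the other direction, 4 aquaporins and 231 receptor-like kinases were above background on no array. In these families and in those of transcription factors, cell wall, transport and signalling together, 3297 genes were on the array, 2159 were above background on all arrays and 554 on none. Of all 29690 loci, 19033 were above background on all arrays and 5146 on none.

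Of 23016 genes tested, 1090 (4.74%) were higher at 24 h and 1550 (6.73%) were lower, 2640 (11.5%) in all. Higher calls were 41.3% of the calls, but 51.7% after scaling to the 75th percentile, 26.3% after normexp, another background correction, 30.9% among genes above background on all arrays, and 88.1% with no normalization between arrays. The median difference of tested genes was 0.02 on the log2 scale, and it moved by 0.125 with 75th-percentile scaling and by 0.608 with none. Among all tested genes, the 3 values at 24 h were all above the 3 short-term values in 28.1% and all below in 25.5%. With slide as a random block, 561 genes were higher and 909 lower, and the correlation within slides was 0.467. The whole 24 h group was on slide 1, so this block cannot separate time from slide. Its spread between slides comes from the short-term slides 2 and 3 only. Where a call is said below to hold with it, a slide effect was therefore not tested. The short-term arrays of slide 2 and of slide 3 differed from each other by at least 2-fold in 1680 of the tested genes (7.30%), and 1817 of the 2640 called genes differed at least 2-fold from each of those slides. The plot of differences against signal shows calls in both directions at low and at high signal.

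**Figure D1:**
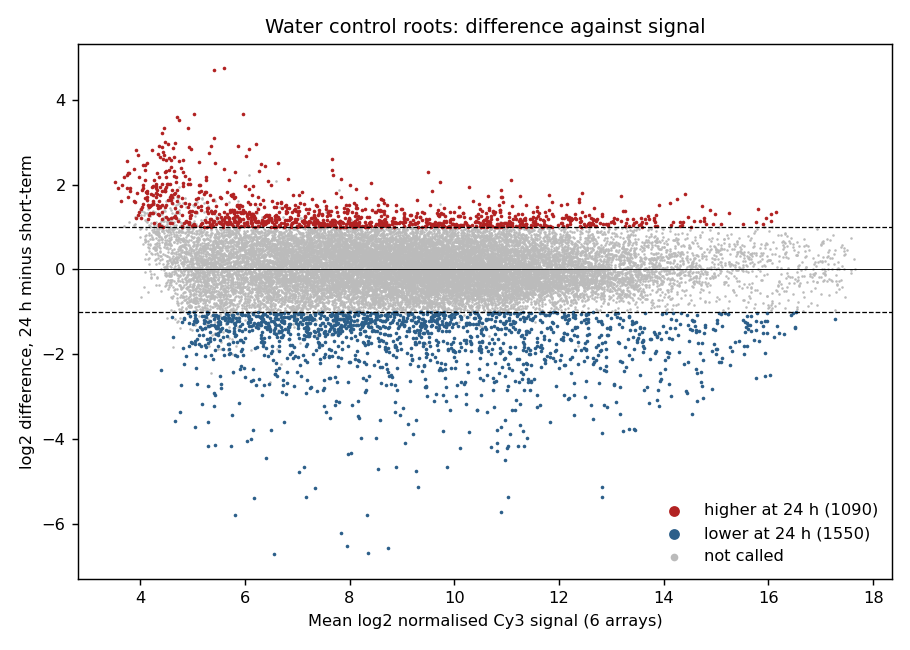
Difference in log2 Cy3 signal (24 h minus short-term, vertical axis) against mean log2 normalised Cy3 signal (horizontal axis) for the 23016 tested genes. Coloured points are the 1090 genes called higher and the 1550 called lower at 24 h, grey points all others, and dashed lines mark 2-fold.

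The number of genes detected on one side only was uneven. Genes above background on all 3 arrays of the 24 h group and on none of the short-term group numbered 353, and 22 were above background on all 3 short-term arrays and on none at 24 h. Of the genes called higher, 186 were above background on no short-term array, and of those called lower, 20 were above background on no 24 h array. Such genes passed the filter through the brighter group alone and have only a bound, so no p-value is given beside a bound. For them "at least N-fold" sets the mean of the brighter group against the lowest signal above background on each array of the dimmer group, or the dim probe's own signal where that was higher. Normexp, and the route that normalises both channels together (loess and Aquantile), both add an offset of 50 to every signal, which shrinks differences between dim signals. Where they moved the fold of a called gene named here by over 1.5 times, their log2 values are given beside it.

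Among the 12 annotated genes with the largest falls of those above background on every array and apart between groups (log2 differences -5.37 to -2.98), AP2/ERF-153, OsMT-II-1a and Os07g0561800 are described with their families, and 4 enzyme genes are given first. Of the tested genes, 4025 could be named, 2575 of them as members of the gene families. The others could be named only from the study's tables of Hg-responsive genes, which were chosen on these arrays. The choice outside the families therefore leans to genes that also responded to Hg. The pectate lyase gene Os06g0584000, whose family cleaves pectin in the wall, had signals of 74.8, 63.2 and 83.3 at 24 h, against 1741, 2395 and 1681 in the short-term group. It was 26.1-fold lower at 24 h (log2 difference -4.71 ± 0.19 SE, adjusted p = 0.00011), and the groups did not overlap. The UDP-glucosyltransferase family gene Os03g0757000, of enzymes that attach sugars to small molecules, had 78.2, 105 and 92.1 at 24 h, against 1590, 1797 and 1043 in the short-term group (log2 difference -3.98 ± 0.23 SE, adjusted p = 0.000269). Among these falls, 2 genes were annotated as lipolytic enzymes of the G-D-S-L family. Os06g0725200 had 70.6, 48.6 and 59 at 24 h, against 699.9, 612 and 510 in the short-term group, a 10.2-fold fall (log2 difference -3.36 ± 0.19 SE, adjusted p = 0.000258). Os10g0393800 had 132, 104 and 68.1 at 24 h, against 1005, 937 and 636 in the short-term group (log2 difference -3.11 ± 0.29 SE, adjusted p = 0.000953). All 4 of these calls held with slide as a random block and with any 1 array left out, but the size of the falls depended on background handling, with Os06g0584000 at -3.50 with loess and Aquantile and -3.65 with normexp, Os03g0757000 at -2.85 with loess and Aquantile and -3.02 with normexp, Os06g0725200 at -2.10 with loess and Aquantile and -2.31 with normexp and Os10g0393800 at -2.29 with loess and Aquantile and -2.44 with normexp.

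The 12 largest rises chosen in the same way had log2 differences of 1.43 to 1.96, the largest that of the antiporter gene Os12g0132500, given with the transporters. The filter on all 6 arrays took the higher calls from 1090 to 617 and the lower calls from 1550 to 1380. It left out more rises than falls, so the sizes of the chosen rises and falls are not comparable. Among all tested family members the largest difference was 3.22. Os11g0660000, annotated with a sodium/calcium exchanger membrane region, had 494, 616 and 522 at 24 h, against 117, 199 and 128 in the short-term group (log2 difference 1.91 ± 0.22 SE, adjusted p = 0.00227). Os02g0644900, annotated as a sodium/potassium/calcium exchanger, had 799, 649.8 and 679 at 24 h, against 231, 233 and 214 in the short-term group, a 3.13-fold rise (log2 difference 1.64 ± 0.13 SE, adjusted p = 0.000609). Both are in the Ca2+:cation antiporter family, which moves calcium across membranes in exchange for other cations. The class II chitinase gene Os01g0287600 had 524, 420 and 365 at 24 h, against 111, 154 and 202 in the short-term group (log2 difference 1.52 ± 0.25 SE, adjusted p = 0.00649). The HSP20-like chaperone gene Os01g0840200 had 2761, 2600 and 2703 at 24 h, against 1063, 802 and 1090 in the short-term group (log2 difference 1.46 ± 0.16 SE, adjusted p = 0.00166). In all 4 the lowest value at 24 h was above the highest short-term value, and each call held with slide as a random block and with any 1 array left out.

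Water channels fall into subfamilies named plasma membrane (PIP), tonoplast (TIP), nodulin-26-like (NIP) and small basic (SIP) intrinsic proteins. Of 25 aquaporins tested, 3 were higher at 24 h (12%, against 4.74% of all tested genes) and 1 was lower (4%, against 6.73%), and the median difference of the list was 0.23. OsPIP1;2 (Os04g0559700) had 52680, 46090 and 47900 at 24 h, against 14960, 18430 and 22970 in the short-term group, a 2.64-fold rise (log2 difference 1.40 ± 0.18 SE, adjusted p = 0.0031). OsPIP2;2 (Os02g0629200) had 24040, 24680 and 29390 at 24 h, against 10500, 13100 and 14150 in the short-term group (log2 difference 1.06 ± 0.16 SE, adjusted p = 0.0053), a rise that just passed the 2-fold threshold. OsSIP1;1 (Os01g0182200), of a subfamily found on internal membranes, had 3480, 2421 and 2448 at 24 h, against 1104, 1120 and 1382 in the short-term group (log2 difference 1.20 ± 0.19 SE, adjusted p = 0.00561). These 3 did not overlap between groups. OsTIP5;1 (Os04g0550800) was lower, with 57.6, 39.3 and 46.3 at 24 h, against 145, 73.3 and 82.1 in the short-term group (log2 difference -1.02 ± 0.28 SE, adjusted p = 0.0328). With slide as a random block the calls of OsSIP1;1 (1.21, adjusted p = 0.0574) and OsTIP5;1 (-1.10, adjusted p = 0.111) were lost. Scaling to the 75th percentile left 1 aquaporin higher, without OsPIP1;2 (0.92) and OsPIP2;2 (0.70). The call of OsPIP2;2 was lost when 1 array was left out, with the difference then found in parentheses, without 24 h replicate 3 (0.96) and without short-term replicate 1 (0.93), and that of OsTIP5;1 without 24 h replicate 1 (-1.16), without 24 h replicate 2 (-0.89), without 24 h replicate 3 (-1.01) and without short-term replicate 1 (-0.72). OsTIP5;1 was not called at -0.47 with loess and Aquantile and -0.53 with normexp.

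The aquaporins that were not called spread on both sides of 0. OsPIP1;1 (Os02g0666200) had 64020, 62300 and 60240 at 24 h, against 52960, 67150 and 57750 in the short-term group, which overlapped (log2 difference 0.08 ± 0.14 SE, adjusted p = 0.687). OsPIP2;4 (Os07g0448100) had 4349, 4755 and 4816 at 24 h, against 1789, 3060 and 2827 in the short-term group (log2 difference 0.90, adjusted p = 0.0214), close to the fold threshold. OsNIP2;1 (Os02g0745100), the silicon influx channel of rice roots, had 31410, 15470 and 14240 at 24 h, against 16570, 10890 and 21980 in the short-term group and overlapped widely. OsTIP2;2 (Os06g0336200) had 39010, 48860 and 53120 at 24 h, against 26850, 30340 and 28240 in the short-term group, apart but under 2-fold (log2 difference 0.71, adjusted p = 0.015). OsTIP4;3 (Os01g0232000) had 669.9, 639 and 708 at 24 h, against 413, 408 and 409 in the short-term group. OsPIP2;7, OsNIP4;1, OsTIP3;1 and OsTIP3;2 were above background on no array. The plot of aquaporin and metallothionein signals gives every tested member by array.

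**Figure D2:**
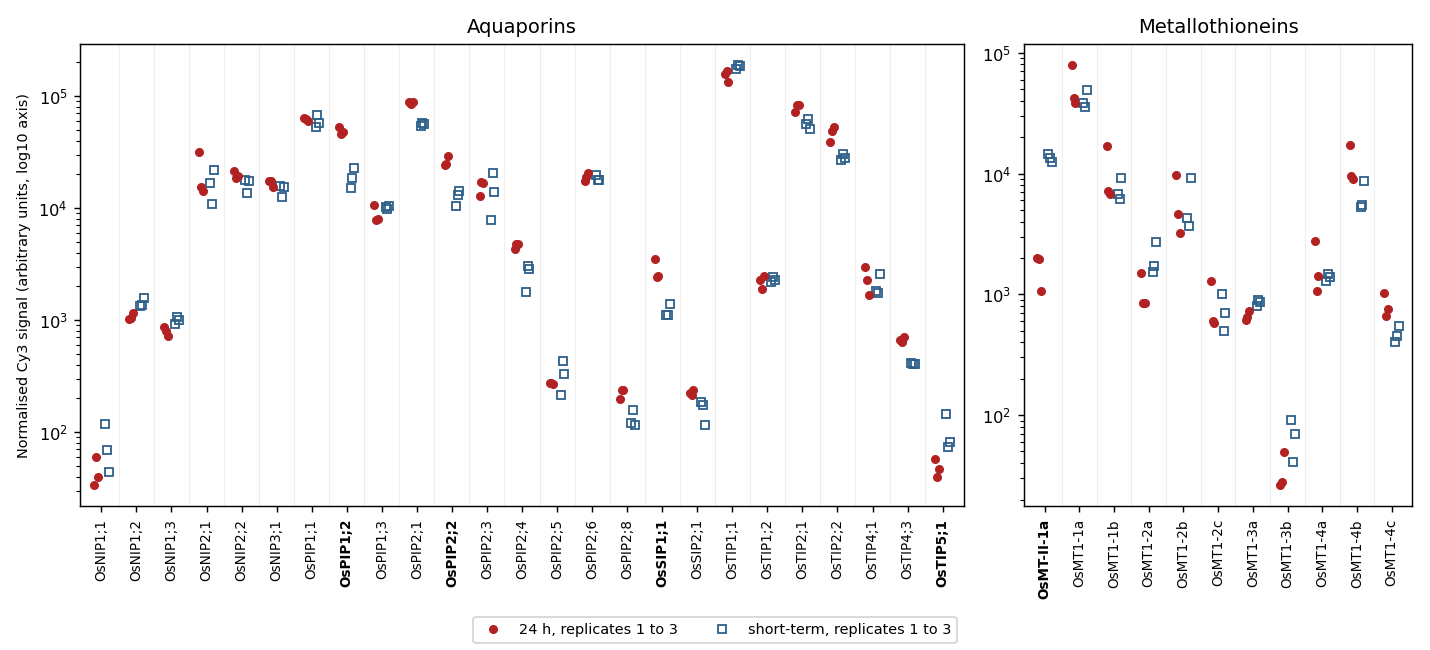
Normalised Cy3 signal (log10 axis) of the 25 tested aquaporins and the 11 metallothioneins in each of the 6 water control arrays, with 24 h replicates as filled circles placed left of the open short-term squares for each gene. Called genes have bold names: OsPIP1;2, OsPIP2;2 and OsSIP1;1 are higher at 24 h, OsTIP5;1 and OsMT-II-1a lower.

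Of 11 metallothioneins, only OsMT-II-1a (Os10g0542100) was called, and it fell (9.09% lower, against 6.73% of all tested genes). Its signals were 2009, 1960 and 1061 at 24 h, against 14410, 13460 and 12410 in the short-term group, an 8.32-fold fall (log2 difference -3.06 ± 0.26 SE, adjusted p = 0.000714) that held with slide as a random block and with any 1 array left out. The median difference of the list was 0.12. At an unadjusted p under 0.05 in limma, 2 metallothioneins were higher and 4 lower. Groups overlapped in 6 of the 11 genes. Among all tested genes, 28.1% had all 24 h values above the short-term values and 25.5% all below, and the rest overlapped. In 9 of the 11 metallothioneins replicate 1 had the highest signal of the 24 h group. OsMT1-1a had 79200, 42070 and 38380 at 24 h, against 38100, 35460 and 49140 in the short-term group, and OsMT1-1b (Os03g0288000) had 16780, 7110 and 6794 at 24 h, against 6792, 6164 and 9242 in the short-term group. OsMT1-4b (Os12g0568500) had 17210, 9531 and 9072 at 24 h, against 5279, 5465 and 8677 in the short-term group. In each of these the other 24 h replicates were close to one another and replicate 1 was far above them. OsMT1-2b (Os01g0974200) had 9745, 4586 and 3235 at 24 h, against 4258, 3707 and 9159 in the short-term group, with the same replicate high on that side and short-term replicate 3 high on the other.

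Gibberellin genes were called in 1 direction. Of 22 tested, 0 were higher and 5 were lower at 24 h (22.7%, against 6.73% of all tested genes), with a median difference of -0.29, while with no normalization between arrays the counts were 4 and 4. At an unadjusted p under 0.05 in limma, 2 were higher and 10 were lower, and without 24 h replicate 2 the lower calls were 3. The lower genes lie at several steps. GA2ox3 (Os01g0757200), GA2ox7 (Os05g0560900) and GA2ox9 (Os02g0630300) belong to the GA 2-oxidases, which inactivate gibberellins. These 3 were the lower calls among 8 deactivation genes tested (37.5%, against 6.73%), whose median difference was 0.24, with a range of -2.25 to 1.33. GA2ox7 had 1309, 1158 and 1041 at 24 h, against 6360, 4976 and 3972 in the short-term group (log2 difference -2.11 ± 0.20 SE, adjusted p = 0.00106, and -1.32 for the mean of its probes). GA2ox3 had 708, 754 and 757 at 24 h, against 1986, 3760 and 3082 in the short-term group (log2 difference -1.94 ± 0.24 SE, adjusted p = 0.00257). GA2ox9 had 73, 55.8 and 54.6 at 24 h, against 101, 450.1 and 530.2 in the short-term group (log2 difference -2.25 ± 0.60 SE, adjusted p = 0.0285), where short-term replicate 1 was near the 24 h values, and its call was lost with slide as a random block (-2.05, adjusted p = 0.115). Its difference was -1.42 with loess and Aquantile and -1.58 with normexp. GID1 (Os05g0407500), the gibberellin receptor, had 2239, 1892 and 1757 at 24 h, against 6378, 5765 and 5292 in the short-term group (log2 difference -1.57 ± 0.15 SE, adjusted p = 0.00104). GA20ox2 (Os01g0883800), an enzyme of gibberellin synthesis, had 3003, 2526 and 2469 at 24 h, against 5860, 5306 and 4893 in the short-term group (log2 difference -1.01 ± 0.14 SE, adjusted p = 0.0040), at the fold threshold. Leaving out 1 array ended the call of GA2ox9 without 24 h replicate 1 (-2.39), without 24 h replicate 2 (-2.19), without 24 h replicate 3 (-2.18), without short-term replicate 2 (-1.93) and without short-term replicate 3 (-1.81), with -3.01, adjusted p = 0.000942 without short-term replicate 1, and that of GA20ox2 without 24 h replicate 2 (-0.97), without 24 h replicate 3 (-0.95) and without short-term replicate 1 (-0.94). GA20ox2 was not called with loess and Aquantile (-0.94), with normexp or with the signals before dye normalization. The mean over each gene's probes ended the calls of GID1 (-0.84) and GA20ox2 (-0.64), and probes of GA20ox2 went both ways, from -1.45 to 0.54. GA2ox4, GA2ox5 and GA2ox6 were above background on no array, and GA2ox1 on 1. GA2ox10 (Os05g0208500) was high in both groups, with 6132 to 6578 at 24 h, against 5600 to 5685 in the short-term group.

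Ethylene genes were also called only as lower, 3 of 21 (14.3%, against 6.73%), with 0 higher, although 3 were higher and 7 lower at an unadjusted p under 0.05 in limma, and with no normalization between arrays 3 were called higher and 2 lower. Without 24 h replicate 1, 5 were lower. OsACS1 (Os03g0727600), an ACC synthase, which makes the ethylene precursor, had 1230, 1239 and 1248 at 24 h, against 8200, 5335 and 4294 in the short-term group (log2 difference -2.21 ± 0.24 SE, adjusted p = 0.00168). OsACO3 (Os09g0451000), an ACC oxidase of the last step, had 179, 202 and 165 at 24 h, against 694, 518 and 545 in the short-term group (log2 difference -1.68 ± 0.16 SE, adjusted p = 0.00112, and -1.04 for the mean of its probes). OsCTR1;2 (Os09g0566500), of the CTR1 kinases that repress ethylene signalling, had 333, 336 and 367 at 24 h, against 826, 714 and 656 in the short-term group (log2 difference -1.08 ± 0.14 SE, adjusted p = 0.0030), a call that was lost without short-term replicate 1 (-0.99), with 75th-percentile scaling (-0.94) and with loess and Aquantile (-0.93). The mean over the probes of OsACS1 gave -0.40 and no call, since its other probe was higher at 24 h by 1.41.

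Of 71 auxin genes, 5 were higher (7.04%, against 4.74%) and 1 was lower (1.41%, against 6.73%), with 20 higher and 11 lower at an unadjusted p under 0.05 in limma. The count of higher genes was 1 with slide as a random block or without 24 h replicate 2, 2 without short-term replicate 2, and 3 without 24 h replicate 3 or short-term replicate 1, and 3 were lower without short-term replicate 2. Of 12 tested genes of auxin synthesis, 3 were higher (25%, against 4.74%). OsAAO1 (Os10g0138100), an aldehyde oxidase, had 1076, 1367 and 1444 at 24 h, against 449, 578 and 515 in the short-term group (log2 difference 1.33 ± 0.17 SE, adjusted p = 0.00296), the one of the 3 that held with slide as a random block and with any 1 array left out. OsTAA1;1 (Os01g0169800) and OsTAA1;3 (Os01g0717700) encode tryptophan aminotransferases of auxin synthesis. OsTAA1;1 had 3637, 3540 and 3751 at 24 h, against 2570, 1257 and 1717 in the short-term group (log2 difference 1.04 ± 0.25 SE, adjusted p = 0.0216) and OsTAA1;3 had 3472, 3369 and 2584 at 24 h, against 1056, 1770 and 1846 in the short-term group (log2 difference 1.04 ± 0.25 SE, adjusted p = 0.0201). With slide as a random block neither was called (OsTAA1;1 0.97, adjusted p = 0.112 and OsTAA1;3 1.11, adjusted p = 0.0827). The call of OsTAA1;1 was lost without 24 h replicate 1 (1.04), without 24 h replicate 2 (1.06), without 24 h replicate 3 (1.02) and without short-term replicate 2 (0.79) and at 0.91 with loess and Aquantile and 0.87 with normexp, and that of OsTAA1;3 without 24 h replicate 1 (0.97), without 24 h replicate 2 (0.99) and without short-term replicate 1 (0.79). Neither was called with 75th-percentile scaling (OsTAA1;1 0.94 and OsTAA1;3 1.00). OsTIR1;1 (Os05g0150500), an F-box auxin receptor, was lower, with 1988, 2103 and 2231 at 24 h, against 5344, 4506 and 4661 in the short-term group (log2 difference -1.20 ± 0.13 SE, adjusted p = 0.00177), while OsTIR1;2 (Os02g0759700) had 5663 to 6203 at 24 h, against 4349 to 5637 in the short-term group and OsTIR1;3 (Os04g0395600) had 8438 to 9514 at 24 h, against 8970 to 10020 in the short-term group, neither called. None of the 22 auxin response factors (ARF) tested was called by limma, although 4 were higher and 3 lower at an unadjusted p under 0.05, and 1 of 27 Aux/IAA genes was called higher (3.7%, against 4.74%).

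For abscisic acid (ABA), 4 of 40 tested genes were higher (10%, against 4.74%) and 3 were lower (7.5%, against 6.73%). OsABA3 (Os06g0670000), of ABA synthesis, had 1057, 1189 and 1104 at 24 h, against 2941, 2925 and 3055 in the short-term group (log2 difference -1.42 ± 0.12 SE, adjusted p = 0.00066). OsVP1 (Os01g0911700), a B3 transcription factor of ABA responses best known from seeds, had 40.6, 45 and 41.5 at 24 h, against 170.3, 164 and 384 in the short-term group (log2 difference -2.38 ± 0.33 SE, adjusted p = 0.00373), and both calls held with slide as a random block, but the difference of OsVP1 was -1.08 with loess and Aquantile and -1.19 with normexp. With slide as a random block, 0 of the ABA genes were higher and 2 were lower, 0 were higher with loess and Aquantile or normexp, and 1 was higher without any 1 of the 24 h replicates or without short-term replicate 1. Cytokinin genes had 1 of 34 higher (2.94%, against 4.74%) and 3 lower (8.82%, against 6.73%), and 9 higher and 2 lower with no normalization between arrays. Without short-term replicate 2, 5 were higher. Among the lower were OsCKX11 (Os08g0460600), a cytokinin oxidase that degrades the hormone, with 295, 264 and 232 at 24 h, against 943, 702 and 1372 in the short-term group (log2 difference -1.88 ± 0.25 SE, adjusted p = 0.00344), and the response regulator OsRR13 (Os04g0212200), with 102, 97.9 and 89.2 at 24 h, against 514, 388 and 319 in the short-term group (log2 difference -2.05 ± 0.19 SE, adjusted p = 0.00103, and -1.41 with loess and Aquantile and -1.55 with normexp). Jasmonate genes had 3 of 24 higher (12.5%, against 4.74%) and 0 lower, with 10 higher and 3 lower at an unadjusted p under 0.05 in limma, and no jasmonate gene was called with slide as a random block. OsJMT1 (Os01g0701700), a jasmonate methyltransferase, had 89.99, 79.2 and 96.2 at 24 h, against 27.8, 30.7 and 49.1 in the short-term group (log2 difference 1.35 ± 0.23 SE, adjusted p = 0.00727, and 1.39, adjusted p = 0.0583 with slide as a random block). It was not called at 0.57 with loess and Aquantile and 0.59 with normexp. Of 28 brassinosteroid genes, D11 (Os04g0469800), a cytochrome P450 of brassinosteroid synthesis, was the 1 called (3.57% lower, against 6.73%). D11 had 9946, 10350 and 9890 at 24 h, against 23040, 35490 and 26900 in the short-term group (log2 difference -1.48 ± 0.18 SE, adjusted p = 0.00252). Probes of D11 disagreed, from -1.48 to 0.53, and their mean gave -0.19 with no call.

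**Figure D3:**
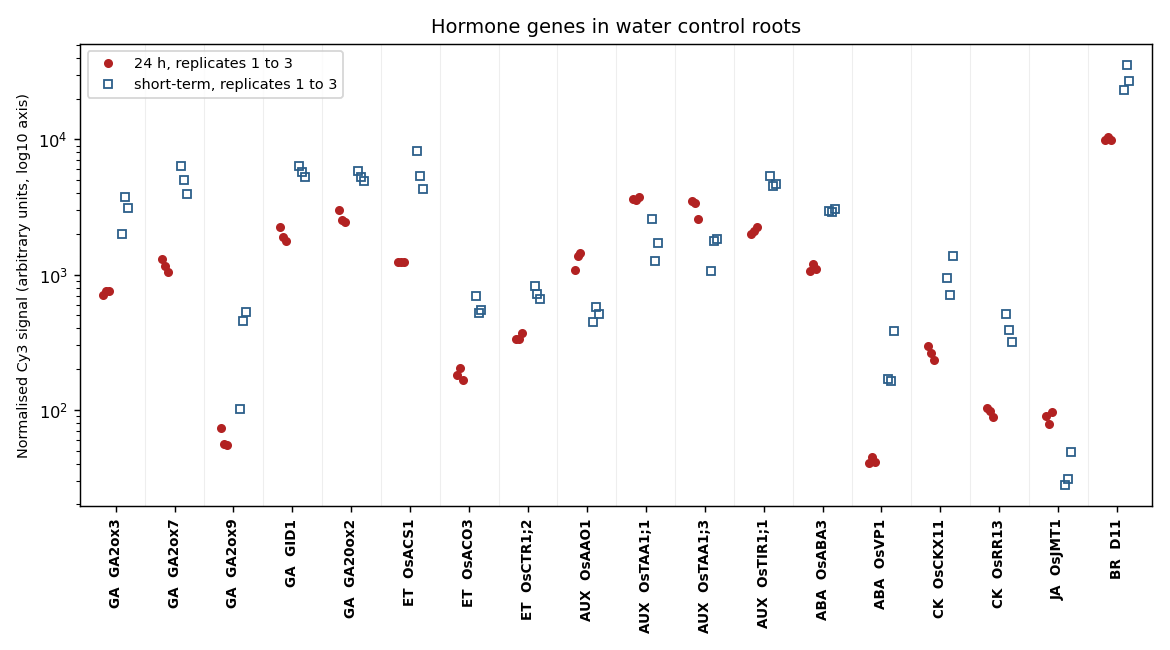
Normalised Cy3 signal (log10 axis) in each of the 6 water control arrays of the 18 called hormone genes named in the text, by hormone (GA, gibberellin; ET, ethylene; AUX, auxin; ABA; CK, cytokinin; JA, jasmonate; BR, brassinosteroid), with 24 h replicates as filled circles left of the open short-term squares. The gibberellin and ethylene genes called at 24 h lie below their short-term values, and those of auxin synthesis above.

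AP2/ERF proteins are plant transcription factors, among them the ethylene response factors and the regulators of drought and cold genes. Of 105 tested, 4 were higher at 24 h (3.81%, against 4.74%) and 13 were lower (12.4%, against 6.73%), and the median difference was -0.13. With slide as a random block 2 were higher and 4 lower, without 24 h replicate 2 4 were higher and 8 lower, without short-term replicate 2 7 were higher, with loess and Aquantile or with normexp 1 was higher and 8 were lower, and with no normalization between arrays the split turned to 24 higher and 9 lower. AP2/ERF-153 (Os10g0523900) had the widest difference of the family, with 1518, 166 and 5701 at 24 h, against 45790, 47030 and 47510 in the short-term group (log2 difference -5.37 ± 1.14 SE, adjusted p = 0.0139). Its 24 h replicates spread over more than an order of magnitude, and without replicate 2 the difference was -3.99, adjusted p = 0.0115, and without replicate 3 it was -6.54, adjusted p = 0.00989; with slide as a random block it was not called (-5.37, adjusted p = 0.122). AP2/ERF-96 (Os06g0165600) had 15290, 12880 and 12200 at 24 h, against 45970, 54250 and 59460 in the short-term group (log2 difference -1.98 ± 0.16 SE, adjusted p = 0.000567), and its 3 probes ran from -2.14 to -0.31. AP2/ERF-44 (Os03g0174400) had 74.8, 112 and 63.7 at 24 h, against 454, 392 and 604 in the short-term group (log2 difference -2.55 ± 0.26 SE, adjusted p = 0.00131, and -1.64 with loess and Aquantile and -1.76 with normexp). AP2/ERF-123 (Os07g0674800) had 73.9, 47.4 and 66 at 24 h, against 229, 629 and 639 in the short-term group (log2 difference -2.88 ± 0.42 SE, adjusted p = 0.00435, and -1.87 with loess and Aquantile and -1.98 with normexp). Both of these, and AP2/ERF-96, held with slide as a random block. AP2/ERF-157 (Os11g0168500) was high in both groups, with 65960 to 79510 at 24 h, against 94540 to 97870 in the short-term group, and was not called.

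The other transcription factor families were small. Of 16 B3 genes of the ABI3/VP1 group, 2 were lower (12.5%, against 6.73% of all tested genes) and 0 higher (3 and 5 at an unadjusted p under 0.05 in limma). Os12g0591300 was above background on no 24 h array and on all 3 short-term arrays. It had 12.3, 10.8 and 8.13 at 24 h, against 134, 154 and 283 in the short-term group, at least 15.5-fold lower at 24 h. That bound holds for the processed signal only, since the fitted difference was -1.48 with loess and Aquantile and -1.61 with normexp. Among LOB-domain (AS2) genes, 2 of 20 were higher (10%, against 4.74%) and 1 lower (5%, against 6.73%). The lower gene was Os01g0129600, with 5334, 4375 and 4767 at 24 h, against 12280, 11210 and 14510 in the short-term group (log2 difference -1.39 ± 0.15 SE, adjusted p = 0.00184).

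Receptor-like kinases sense ligands at the cell surface and include the leucine-rich repeat (LRR), lectin and S-domain (SD) types. Of 578 tested, 25 were higher at 24 h (4.33%, against 4.74%) and 65 lower (11.2%, against 6.73%), with a median difference of -0.14. With slide as a random block the counts were 14 and 34, with 75th-percentile scaling 41 and 53, and with no normalization between arrays the direction turned, to 137 higher and 20 lower. The subfamilies given here were picked for their number of calls. The lower calls numbered 8 of 38 L-type lectin kinases (21.1%), 7 of 24 SD-2b (29.2%) and 6 of 15 SD-2a (40%). They also numbered 5 of 12 LRR-Ia (41.7%) and 4 of 18 LRR-VIII-2 (22.2%), each against 6.73% of all tested genes. Of 45 RLCK-VIIa kinases, 4 were higher (8.89%, against 4.74%) and 0 lower (9 and 14 at an unadjusted p under 0.05 in limma). These counts moved with the processing. The LRR-Ia kinases had 1 lower with slide as a random block, loess and Aquantile, or normexp, 1 without 24 h replicate 1 or 3, and 2 without 24 h replicate 2 or short-term replicate 1. With loess and Aquantile the L-type lectin, SD-2b and SD-2a kinases each had 4 lower and LRR-VIII-2 had 2. The RLCK-VIIa kinases had 2 higher and 2 lower without short-term replicate 1, 4 and 2 without short-term replicate 3, and 0 of either with normexp. Os06g0130100, annotated as ERECTA-like kinase 1, of a family that in Arabidopsis controls organ growth, had 528, 859 and 793 at 24 h, against 5963, 4760 and 2997 in the short-term group (log2 difference -2.63 ± 0.30 SE, adjusted p = 0.00208). The LRR-XI kinase Os08g0493800 had 36100, 32260 and 32220 at 24 h, against 62230, 72320 and 83200 in the short-term group (log2 difference -1.11 ± 0.15 SE, adjusted p = 0.00359, and -1.75 with 75th-percentile scaling). The LRR-Ia kinase Os09g0355400 had 843, 1057 and 351 at 24 h, against 9782 and 9331 on 2 short-term arrays, since the spot was marked as an outlier on short-term replicate 1 and was left out (log2 difference -3.81 ± 0.47 SE, adjusted p = 0.0039). The PERK kinase Os03g0269300 was above background on no 24 h array. It had 13.2, 10.4 and 5.86 at 24 h, against 70.4, 288 and 225 in the short-term group, at least 13.9-fold lower at 24 h. Without short-term replicate 1 the bound was 21.4-fold, while the fitted difference was -1.55 with loess and Aquantile and -1.67 with normexp. In the other direction, Os01g0816600 of the LRR-VIII-1 type had 167, 214 and 246 at 24 h, against 32.4, 27.3 and 20.8 in the short-term group (log2 difference 2.96 ± 0.22 SE, adjusted p = 0.000443). With 1 short-term array above background, this size rests on signals near background, and it was 1.30 with loess and Aquantile and 1.38 with normexp.

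Calcium sensors moved in both directions. Of 30 calmodulin-like (CML) genes, 4 were higher (13.3%, against 4.74%) and 1 lower (3.33%, against 6.73%). Without 24 h replicate 1, 2 were higher and 2 lower, and without short-term replicate 3, 3 were lower. OsCML10 (Os01g0949500) had 2197, 2233 and 2241 at 24 h, against 1039, 876 and 1096 in the short-term group (log2 difference 1.15 ± 0.13 SE, adjusted p = 0.00219) and OsCML22 (Os04g0492800) had 896, 731 and 832 at 24 h, against 355, 309 and 369 in the short-term group (log2 difference 1.25 ± 0.14 SE, adjusted p = 0.00203), and both groups of 3 were apart. OsCML21 (Os05g0312600) was lower, with 108, 90.3 and 103 at 24 h, against 865, 437 and 302 in the short-term group (log2 difference -2.28 ± 0.36 SE, adjusted p = 0.00575, and -1.62 with loess and Aquantile and -1.76 with normexp). Of 9 CBL proteins, which bind calcium and partner with CIPK kinases, OsCBL10 (Os01g0711500) was the 1 called (11.1% lower, against 6.73%). OsCBL10 had 7756, 7160 and 8096 at 24 h, against 22380, 26010 and 23880 in the short-term group, a 3.14-fold fall (log2 difference -1.65 ± 0.13 SE, adjusted p = 0.000506). No calcium-dependent protein kinase was called among 23 tested with limma (6 were higher and 4 lower at an unadjusted p under 0.05), although without the fold threshold 3 were higher and 2 lower, the lower including OsCPK7 (Os03g0128700) with a log2 difference of -0.99 (adjusted p = 0.0108). Among 63 MAP kinase kinase kinases, 1 was higher (1.59%, against 4.74%) and 4 were lower (6.35%, against 6.73%), and without short-term replicate 3, 5 were higher and 3 lower. MAPKKK73 (Os03g0292700) had 368, 398 and 434 at 24 h, against 1527, 1339 and 1327 in the short-term group (log2 difference -1.81 ± 0.13 SE, adjusted p = 0.000437) and MAPKKK30 (Os02g0120100) had 226, 146 and 160.3 at 24 h, against 761, 1039 and 1861 in the short-term group (log2 difference -2.71 ± 0.34 SE, adjusted p = 0.00288). Of 107 phosphatases, 4 were lower (3.74%, against 6.73%) and 3 higher (2.8%, against 4.74%). The largest fall among the 4 lower was that of OsPP45 (Os03g0192500), with 2231, 1427 and 1455 at 24 h, against 5369, 6785 and 6957 in the short-term group (log2 difference -1.92 ± 0.21 SE, adjusted p = 0.00195). Without 24 h replicate 2, 2 phosphatases were higher and 1 was lower, without 24 h replicate 3, 2 and 2, without short-term replicate 2, 5 and 5, and without short-term replicate 3, 6 and 3. With loess and Aquantile 0 were higher and 1 was lower. The MAP kinases MPK3 (Os06g0154500) and MPK4 (Os05g0566400) were not called. MPK3 had 6514 to 6810 at 24 h, against 6553 to 7668 in the short-term group. MPK4 had 7703 to 8352 at 24 h, against 6478 to 8530 in the short-term group.

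**Figure D4:**
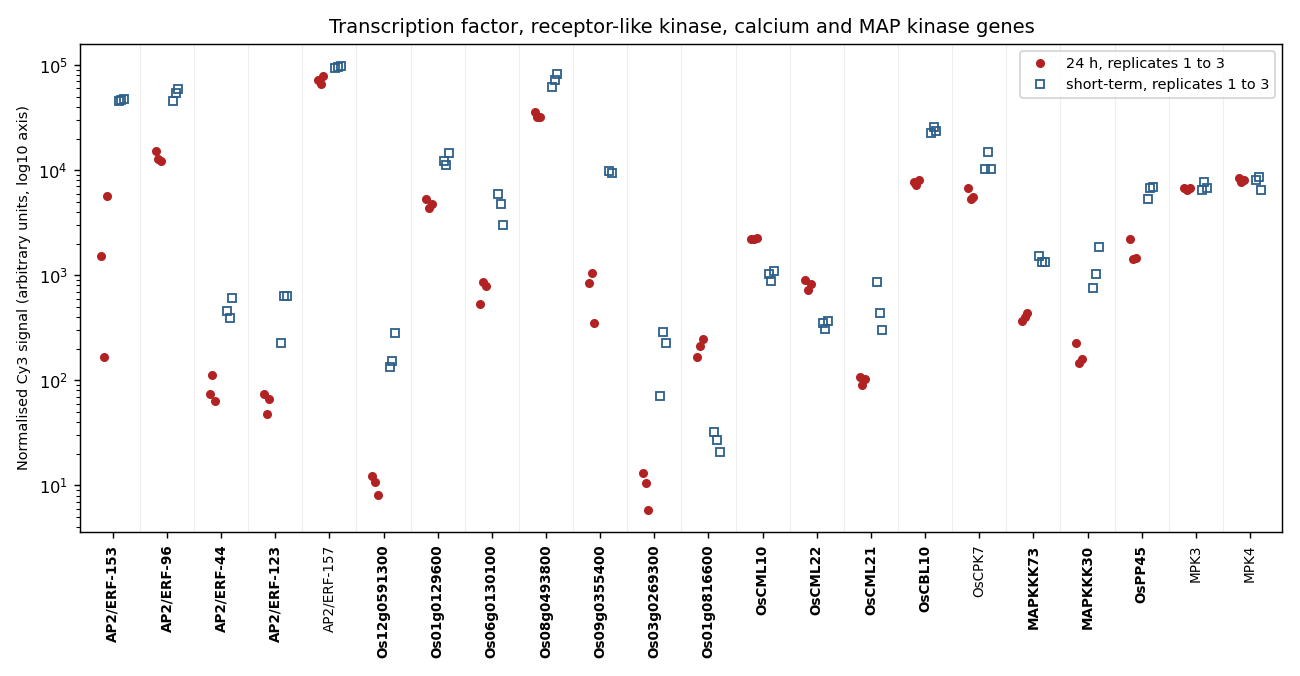
Normalised Cy3 signal (log10 axis) in each of the 6 water control arrays of the transcription factor, receptor-like kinase, calcium and MAP kinase genes named with their values in the text, with 24 h replicates as filled circles left of the open short-term squares and called genes in bold. AP2/ERF-153 has the widest spread among 24 h replicates, from 166 to 5701, against 45790 to 47510 in the short-term group.

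Cell wall genes as a whole were near the background, with 26 of 437 higher (5.95%, against 4.74%) and 24 lower (5.49%, against 6.73%). By role, genes that reassemble the wall had 12 of 227 higher (5.29%) and 17 lower (7.49%). That split turned to 20 and 15 with 75th-percentile scaling and to 69 and 8 with no normalization between arrays. Genes of polysaccharide synthesis had 8 of 118 higher (6.78%) and 3 lower (2.54%). Without short-term replicate 3, 20 reassembly genes were higher and 17 lower, without 24 h replicate 2, 8 and 13, and with loess and Aquantile, 4 and 13. The polysaccharide genes had 5 higher without 24 h replicate 2 or short-term replicate 1, 3 with slide as a random block, 2 with loess and Aquantile and 1 with normexp. The glycoside hydrolase 18 genes, listed as yieldins, wall proteins related to chitinases, had 0 of 12 higher and 4 lower (33.3%, against 6.73%). At an unadjusted p under 0.05 in limma they had 2 higher and 5 lower, and with no normalization between arrays 2 and 2 were called. Of these, Os08g0518900 was above background on 2 of 3 arrays at 24 h, with 33.8, 20.1 and 16 at 24 h, against 1089, 607 and 1180 in the short-term group (log2 difference -5.38 ± 0.35 SE, adjusted p = 0.000313). Its difference was -3.22 with loess and Aquantile and -3.46 with normexp, and -4.29 for the mean of its probes. The class III chitinase homologue Os05g0247500 had 2924, 6828 and 6976 at 24 h, against 21000, 23430 and 22620 in the short-term group (log2 difference -2.11 ± 0.34 SE, adjusted p = 0.0058), with no call when slide was a random block (-2.10, adjusted p = 0.0673). Another member, Os05g0247100, was high in both groups, with 72620 to 120000 at 24 h, against 93850 to 124600 in the short-term group, and was not called. Of 40 expansins, which loosen walls, 2 were higher (5%, against 4.74%) and 4 lower (10%, against 6.73%). These counts turned to 9 and 2 with no normalization between arrays, 5 and 4 without short-term replicate 3, and 1 and 4 without 24 h replicate 2. With slide as a random block or normexp, 0 expansins were higher. The alpha-expansin OsEXPA5 (Os01g0274500) had 8763, 8643 and 8189 at 24 h, against 31630, 36200 and 39240 in the short-term group, a 4.17-fold fall (log2 difference -2.06 ± 0.13 SE, adjusted p = 0.000313). The fasciclin-like arabinogalactan protein gene Os05g0459700 had 33720, 29510 and 28590 at 24 h, against 75200, 84290 and 83410 in the short-term group (log2 difference -1.41 ± 0.13 SE, adjusted p = 0.000957, and -2.07 with 75th-percentile scaling), and both calls held with slide as a random block. The endoglucanase gene Os09g0530200 had 41440, 36310 and 38180 at 24 h, against 71580, 100600 and 104900 in the short-term group (log2 difference -1.24 ± 0.18 SE, adjusted p = 0.00428), but its probes went in opposite directions, from -1.24 to 1.77, and with 75th-percentile scaling it was -1.92. The cellulose-synthase-like gene Os07g0553000 had 328, 253 and 263 at 24 h, against 1078, 1106 and 1527 in the short-term group (log2 difference -2.13 ± 0.19 SE, adjusted p = 0.000825). Among the higher genes, the UDP-glucuronic acid decarboxylase gene Os01g0837300, of UDP-xylose synthesis, had 6085, 6293 and 6060 at 24 h, against 2524, 2935 and 3173 in the short-term group (log2 difference 1.10 ± 0.13 SE, adjusted p = 0.00257), though its probes ran from -0.84 to 1.10 and the call was lost with their mean (0.45) and with 75th-percentile scaling (0.94).

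Transporter genes had 61 of 923 higher (6.61%, against 4.74%) and 44 lower (4.77%, against 6.73%). Ion transporters had 9 of 90 higher (10%) and 4 lower (4.44%), and secondary transporters 41 of 626 higher (6.55%) and 33 lower (5.27%). ATP-driven transporters had 10 of 203 higher (4.93%) and 7 lower (3.45%). These counts also moved with the arrays used. Without 24 h replicate 3 the ion transporters had 5 higher and 2 lower, without short-term replicate 1, 5 and 1, without 24 h replicate 2, 6 and 1, and without short-term replicate 3, 8 and 2. The slide block left 3 and 0. Without 24 h replicate 1, 6 ATP-driven transporters were higher. The higher secondary transporters were 23 with slide as a random block, 20 with loess and Aquantile and 17 with normexp. The voltage-gated ion channel family had 4 of 18 higher and 0 lower (9 and 6 at an unadjusted p under 0.05 in limma), none of them called with slide as a random block, loess and Aquantile or normexp and 2 higher without any 1 of the 24 h replicates or without short-term replicate 1, and the proton-dependent oligopeptide (POT) family, which also carries nitrate, had 7 of 56 higher and 6 lower. Normalising both channels together (loess and Aquantile) gave 3 and 4 in the POT family, and normexp gave 3 and 6. The POT gene Os08g0527700 had 20570, 27620 and 21120 at 24 h, against 115800, 143400 and 150900 in the short-term group (log2 difference -2.57 ± 0.18 SE, adjusted p = 0.000346), and the groups were far apart. In contrast, the POT gene Os01g0556700 had 135, 164 and 232 at 24 h, against 19.2, 52.1 and 40.2 in the short-term group (log2 difference 2.33 ± 0.39 SE, adjusted p = 0.00666). With 1 short-term array above background, this size rests on signals near background, and it was 1.03 with loess and Aquantile and 1.04 with normexp. The PDR-type ABC transporter gene Os01g0516900 had 2127, 2035 and 2099 at 24 h, against 7871, 9119 and 8493 in the short-term group (log2 difference -2.02 ± 0.12 SE, adjusted p = 0.000278). The major facilitator gene Os07g0561800 had 1852, 1387 and 1694 at 24 h, against 9351, 17130 and 15020 in the short-term group (log2 difference -3.04 ± 0.25 SE, adjusted p = 0.000621, and -2.21 for the mean of its probes), while the antiporter gene Os12g0132500 of the same superfamily was higher, with 3871, 1841 and 2107 at 24 h, against 344, 663 and 1127 in the short-term group (log2 difference 1.96 ± 0.47 SE, adjusted p = 0.0201). The call of Os12g0132500 was lost with slide as a random block (2.08, adjusted p = 0.0961) and without 24 h replicate 1 (1.63) and without 24 h replicate 3 (2.07). The high-affinity ammonium transporter gene Os02g0620500 had 699, 3517 and 3190 at 24 h, against 8693, 8656 and 8959 in the short-term group (log2 difference -2.14 ± 0.59 SE, adjusted p = 0.0307), where 24 h replicate 1 lay far below the other 24 h replicates, and its call was lost with slide as a random block (-2.14, adjusted p = 0.199) and without short-term replicate 1 (-2.15), without short-term replicate 2 (-2.15) and without short-term replicate 3 (-2.13). Without 24 h replicate 1 its difference was -1.39, adjusted p = 0.00521.

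**Figure D5:**
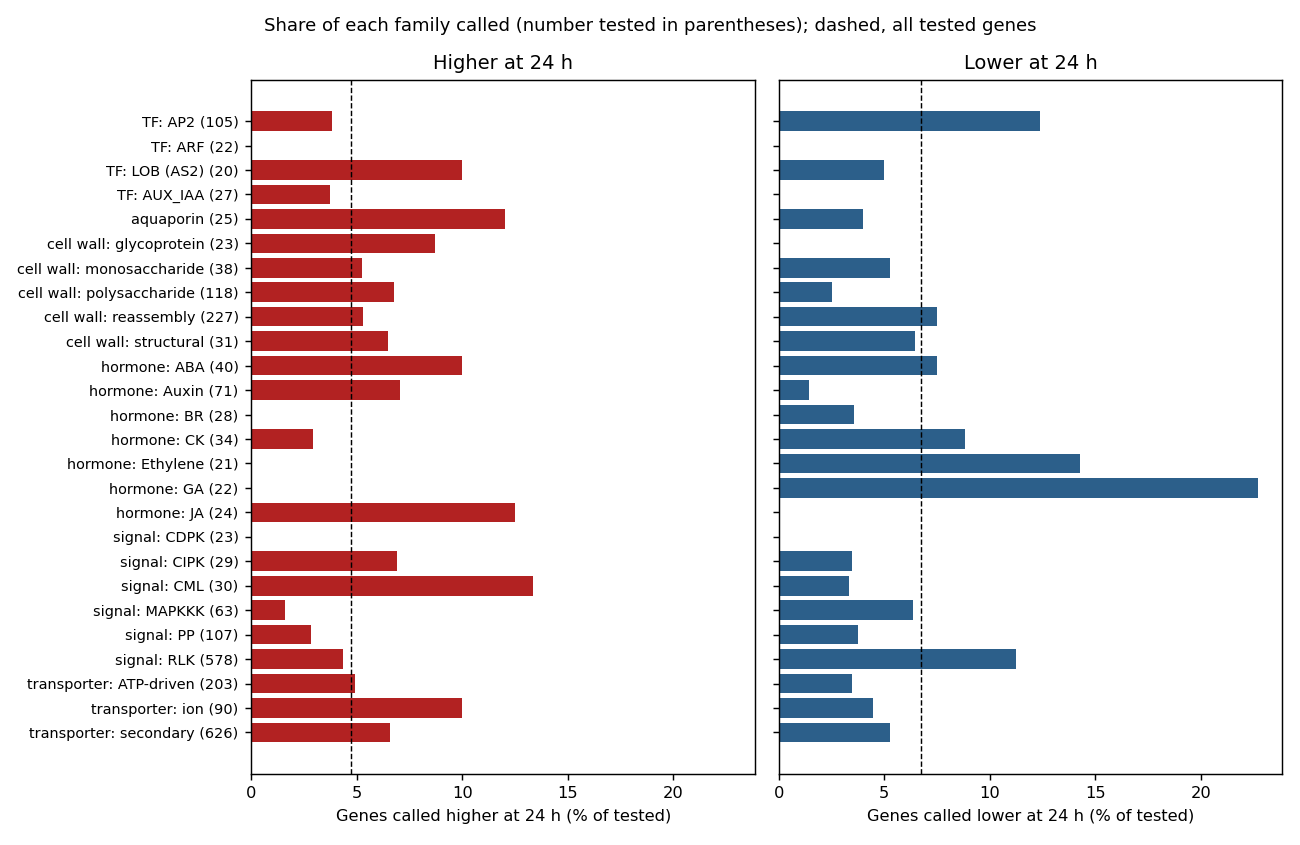
Share of tested genes called higher (left panel) and lower (right panel) at 24 h in each family with at least 20 genes tested (horizontal bars, percent), against the share over all 23016 tested genes (dashed lines at 4.74% and 6.73%). Receptor-like kinases and AP2/ERF factors stand at 11.2% and 12.4% lower, and gibberellin genes at 22.7%.

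The same arrays carried RNA of Hg-treated roots in Cy5, whose difference between the arrays is given here side by side without a test, since both channels share slide and scan. For OsPIP1;2 the Cy5 difference was 2.03, against 1.40 in Cy3, and for OsMT-II-1a it was -2.68, against -3.06. OsEXPA5 had -2.37 in Cy5 and -2.06 in Cy3, and OsCBL10 had -1.78 and -1.65. Other genes had unlike values in the channels. OsACO3 had -0.01 in Cy5 and -1.68 in Cy3, OsCKX11 had -0.34 and -1.88, and the chitinase gene Os01g0287600 had 0.49 and 1.52. The Cy5 difference of GA2ox7 was -0.76, against -2.11 in Cy3.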

How the data were processed

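RNA of water-treated (Cy3) and Hg-treated (Cy5) roots had been hybridised to Agilent two-colour rice oligo arrays without dye swap. The deposited signal intensities were made by the authors with Feature Extraction 10.7.1.1, which subtracted background and normalised the dyes within each array, so the Hg channel touches the Cy3 values and a signal before dye normalization was run as an alternative. The flags for background, saturation and outliers are those of the deposited files. The authors' log ratios of both channels, with their p-values, hold the Hg comparison and were not used.

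Control spots and outlier spots (32 to 61 per array at 24 h and 43 to 175 in the short-term group) were left out, and 0 spots were saturated. From the deposited intensities, log2 of the Cy3 processed signal was quantile-normalised over the 6 arrays. Of 42477 probes, 41908 carried a locus in the files, and 7801 of the 29690 loci had several probes, of which the brightest stood for the gene. Of 497 called genes with several measured probes, 394 had all probes in 1 direction and 103 had a probe in the other. A gene was tested when above background on at least 3 of the 6 arrays with at least 2 values in each group. Of those tested, 93 lacked a value on an array. Differences were tested with limma 3.58.1 in R 4.3.3 (lmFit and eBayes), with Benjamini-Hochberg adjustment. On simulated data with 200 of 22923 genes changed, 64 of 100 were recovered at a log2 change of 1.5 and 81 of 100 at a change of 2, with 3 false calls. The simulated noise was independent between arrays, whereas the measured correlation within slides was 0.467. These counts therefore do not cover calls that arise from differences between slides. The number of arrays limits the precision.

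Gene families are those of the study's supplementary tables, and the members and lists were chosen with earlier results of these data known. Genes named are the largest falls and rises among annotated genes above background on all arrays, up to 4 called members of a list in each direction, aquaporins, metallothioneins and hormone genes, markers, and up to 3 members of a list with the highest signal. The text gives a selection of these. OsCPK7 was picked after its values were seen. The methods' t-test against zero was made on ratios of both channels and has no counterpart for 1 channel. Alternatives covered scaling (to the 75th percentile, none, or loess with Aquantile on both channels), normexp background correction with an offset of 50 on the median spot signal, the filter, the mean of probes, replicate and slide blocks, variance model, fold threshold and each array left out. Scan day and slide coincided, so no separate block for scan day was run. Cross-hybridisation between paralogs was not checked, and probe positions and sequences are not used here.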

Additional observations from a re-analysis of the deposited data

How the results depend on the processing

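The counts set beside these alternatives are 1090 genes higher and 1550 lower at 24 h (141 and 172 members of the gene families). No normalization between arrays gave 5942 higher and 800 lower (688 and 86 family members), loess and Aquantile 454 and 913 (55 and 108), and normexp 367 and 1030 (42 and 124). The filter on all 6 arrays gave 617 higher and 1380 lower (71 and 160), slide as a random block 561 and 909 (69 and 101), no fold threshold 4235 and 3641 (470 and 404), and limma's treat with a 1.5-fold threshold 239 and 682 (38 and 72). Scaling to the 75th percentile, with 1600 higher and 1493 lower, turned the balance of the calls. The signal before dye normalization, no filter, the mean of probes and eBayes with trend and robust moved each of these counts by less than 1.5-fold. Leaving out each array in turn gave 813 to 1338 genes higher and 1206 to 1664 lower, and 103 to 178 and 134 to 192 family members. In none of these settings was a called gene called in the opposite direction. The mean of probes turned the endoglucanase gene Os09g0530200 to 0.26, the 1 printed call whose sign turned, and its probes disagreed. The cause of the other changes was not tested.

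Whether the replicate numbers pair the arrays cannot be decided from 3 arrays a group. Deviations of same-numbered arrays from their group means correlated at r = -0.109, 0.0469 and -0.227, against -0.201 to 0.33 for arrays of unlike number. The replicate block gave 1017 genes higher and 1451 lower (133 and 165 family members).

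Of 62 called genes printed with their values, 41 kept their call under every alternative other than the fold thresholds, 53 with each array left out and 52 with slide as a random block (12 of 17 higher and 40 of 45 lower). Genes above background on all 6 arrays numbered 19033, against 23022 on at least 3 arrays and 16538 with a signal of at least 100 on all 6.

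With 3 arrays a group, 1 dye orientation and 1 slide for the whole 24 h group, these data limit what a difference can be tied to. Of the 1090 higher calls, 186 had no short-term array above background, and 2 of the short-term arrays had the higher local background, whose part in these calls was not tested.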
